A study of Mus musculus with 8 samples.

Results

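Star, Cyp11a1, Cyp17a1, Hsd3b1, Scarb1, Insl3 and Mc2r, genes of steroid hormone production and of the hormones around it, were followed across the gonads of mouse embryos. They were chosen by name, with earlier results of these data known, as genes of Leydig cells and of the adrenal cortex. Leydig cells are the steroid-making cells of the testis. Because of this choice, the ranks and counts below describe the genes and are no independent support. Every probe set annotated to the genes was taken. These 7 genes stood among 8251 genes with a probe set of their own on the array, and had 11 probe sets between them. Of these, 7 (1 per gene) lay far enough above background to be fitted. The other 4 were a further probe set each for Star, Cyp17a1 and Hsd3b1, and 1 that the annotation assigns to both Jak3 and Insl3.

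Steroid synthesis starts from cholesterol, which the receptor Scarb1 takes up from lipoproteins and the Star protein moves into mitochondria. There the enzyme Cyp11a1 cuts the side chain off to give pregnenolone, from which Hsd3b1 makes progesterone and Cyp17a1 makes the precursors of androgens. Insl3 is a peptide hormone of Leydig cells that guides testis descent, and Mc2r is the receptor for ACTH, by which the pituitary drives the adrenal cortex. The cells that form the adrenal cortex and the somatic cells of the gonad come from a shared primordium in the early embryo. Fetal Leydig cells appear in the testis once it has begun to form, while the normal fetal ovary makes little steroid.

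The study compared wild-type (WT) gonads with gonads of embryos lacking Wnt4 (knock-out, KO), a secreted signal of the fetal ovary. The groups were WT females, KO females, WT males and KO males at embryonic day 12.5 (E12.5), and the same 4 at E14.5, each with 1 array. No group carried any other allele or treatment per the labels, and the sources used here do not give the KO allele, the strain, or whether gonads of several embryos were pooled. Values are log2 signals, with each array centred on a common median, and a log2 difference of 1 is 2-fold. Levels under 6.99, the 40th percentile of all values, were treated as background: in differences they were set to that floor, so a difference with 1 array under the floor is given as a lower bound.

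Some features of the arrays bear on every value below. Across probe sets, the E14.5 males had r = 0.996 with each other but only 0.883 to 0.907 with the other 6 arrays, so an array effect and the biology of the testis at that stage cannot be told apart. Wnt4, the targeted gene, was lower in KO than in WT in all 4 pairs, most in females at E12.5 (8.59 against 10.19) and least in males at E14.5 (9.19 against 9.42). The sources used here do not say whether its probe set lies in the deleted part, so it may check nothing. The array labelled WT female E14.5 held the Y-linked gene Eif2s3y at 7.63, within the range of the male arrays, 6.91 to 8.12. The other female arrays held it at 4.86 to 6.04. Xist on the WT female E14.5 array was the lowest of the 4 female arrays. The array labelled KO male E14.5 held ovarian genes above the WT male, among them Stra8 (7.44 in KO and 5.70 in WT) and Kitl (7.65 in KO and 6.23 in WT). Results at E14.5 rest on these 2 arrays and are given within each sex as well. The female pair holds the former array and the male pair the latter, so neither pair avoids them. That the pairs went the same way is therefore no check on these arrays. Their part in the E14.5 differences was not tested.

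Proximal promoters are shown for Cyp11a1 and Hsd3b1, enzymes that act in succession and whose KO differences at E14.5 went the same way. RefSeq windows (build GRCm38.p6) of the 250 bases before the start were searched for 3 of the 7 genes. These were Cyp11a1 with a pair of starts, Hsd3b1 and Insl3. Mc2r was left out of the search, so 3 is not a count of the genes that have a window. Capitals mark the matches to 3 motifs searched on both strands: AAGGTCA of steroidogenic factor 1 (Nr5a1), AGATAA of GATA factors, and TGACG, a cyclic AMP response element half-site. The first Cyp11a1 window is chr9:57997774-57998023 on the plus strand, the second is chr9:58014702-58014951 on the plus strand, and that of Hsd3b1 is chr3:98859795-98860044 on the minus strand, each printed 5′ to 3′.
Cyp11a1, first start: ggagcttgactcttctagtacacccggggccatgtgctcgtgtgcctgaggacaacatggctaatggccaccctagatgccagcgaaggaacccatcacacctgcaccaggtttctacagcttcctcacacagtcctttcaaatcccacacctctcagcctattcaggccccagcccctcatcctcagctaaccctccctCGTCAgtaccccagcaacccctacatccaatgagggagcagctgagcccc
Cyp11a1, second start: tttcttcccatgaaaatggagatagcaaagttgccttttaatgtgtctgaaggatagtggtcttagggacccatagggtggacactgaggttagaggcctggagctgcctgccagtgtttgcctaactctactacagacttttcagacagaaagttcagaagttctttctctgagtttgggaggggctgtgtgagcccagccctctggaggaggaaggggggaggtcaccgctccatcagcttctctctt
Hsd3b1: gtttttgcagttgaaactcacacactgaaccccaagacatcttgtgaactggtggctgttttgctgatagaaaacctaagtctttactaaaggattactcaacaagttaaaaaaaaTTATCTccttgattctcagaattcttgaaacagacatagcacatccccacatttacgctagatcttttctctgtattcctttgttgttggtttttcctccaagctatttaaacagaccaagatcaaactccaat
The first Cyp11a1 window held TGACG once, on the opposite strand, and the Hsd3b1 window held AGATAA once, also on the opposite strand. The second Cyp11a1 window and the Insl3 window held none of the 3. Of 32851 RefSeq windows of this length, 4.08% held AAGGTCA, 9.99% held AGATAA and 17.8% held TGACG, so matches of this kind are common. A match describes the letters and not a bound site.

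At E12.5, Star, Cyp11a1 and Mc2r stood higher in KO than in WT gonads of both sexes, and 1 of them, Star, passed the test. Star rose by 1.0 ± 0.09 (SE) over both sexes, and Cyp11a1 differed by 0.85 ± 0.19 without passing the test. Both values were fitted with the WT female set to the floor. Mc2r differed by 0.39 ± 0.05, also without passing, with an SE to which its floored E14.5 arrays add no spread. The fitted differences of Hsd3b1, Scarb1 and Cyp17a1 lay between 0.02 and 0.14, that of Hsd3b1 with 3 of the 4 arrays set to the floor. In tissue samples like these, more cells of a type and more RNA per cell cannot be told apart.

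Star, which delivers cholesterol to the first enzyme, was at 6.68 in the WT female and 8.08 in the KO female at E12.5. In males of that stage it was at 7.04 in WT and 7.94 in KO. Both KO levels lay above both WT levels, and the WT female was under the floor, so KO exceeded WT by at least 1.10 in the female pair and by 0.90 in the male pair. With limma (Benjamini-Hochberg adjustment over all 8452 fitted probe sets) the adjusted p was 0.0433, and the 95% confidence interval ran from 0.78 to 1.22. In this fit Star was the only 1 of the 7 genes to pass at E12.5, where 0.0592% of all probe sets passed as higher, 0.0237% as lower and 0.0828% in either direction. Its difference was the 4th most positive of the 8452. The call for Star depends on the processing: over 17 alternatives the value stayed between 0.90 and 1.15, but the limma adjusted p passed 0.05 under 3 of them. Cyp11a1 passed too without a floor (limma adjusted p = 6.3e-04) and with a stricter filter, more than the floor on 4 or more arrays (0.0035), and Mc2r under the latter (0.0152).

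Cyp11a1, which makes pregnenolone, followed the same order. It was at 6.79 and 7.93 in WT and KO females and at 7.25 and 8.00 in WT and KO males at E12.5, so that both KO levels exceeded both WT levels. The female pair differed by at least 0.94 and the male pair by 0.75. The mean difference was the 8th most positive of all probe sets, with a limma adjusted p of 0.426 (Benjamini-Hochberg).

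Mc2r, the ACTH receptor, was at 7.32 in the WT female and 7.63 in the KO female at E12.5, and at 6.99 and 7.47 in the WT and KO male. The KO level exceeded the WT level within each sex by 0.31 and 0.47, and both KO levels lay above both WT levels. The closest of these, the KO male and the WT female, were 0.15 apart. The fit's SD for a difference of 2 arrays was 0.07. The E14.5 arrays of Mc2r were all set to the floor and add no spread to the fit. This SD, the SE and the p-value that rests on them therefore understate the spread, and the gap cannot be judged by them. The limma adjusted p of the mean difference was 0.119 (Benjamini-Hochberg). Mc2r was near the floor on all 8 arrays, between 6.24 and 7.63.

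The enzymes that act later were low at this stage. Cyp17a1, at 7.32 and 7.44 in WT and KO females and at 8.06 and 7.99 in WT and KO males, differed by 0.12 and -0.07. Hsd3b1 was under the floor in both females, at 6.34 and 6.75, and in the WT male at 6.91, while the KO male was at 7.26, which gives at least 0.27 in males. Without the floor its differences were 0.41 in females and 0.35 in males, so for Hsd3b1 the background limits what could be measured. Scarb1, the cholesterol uptake receptor, was well above the floor at 9.39 and 9.29 in WT and KO females and at 9.70 and 9.95 in WT and KO males, with differences of -0.10 and 0.25. Insl3 lay under the floor on all 4 arrays.

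Fitted differences at E12.5 were positive for 6 of the 7 genes and 0 for Insl3, with a median of 0.14, where 46.1% of all probe sets were positive. For Scarb1, Cyp17a1 and Hsd3b1 the sign is set by 1 sex. Leaving out an array of the male pair turned Scarb1 to -0.10, and leaving out one of the female pair turned Cyp17a1 to -0.07. The fitted sign of Hsd3b1 comes from the male pair, since both females were set to the floor.

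**Figure D1:**
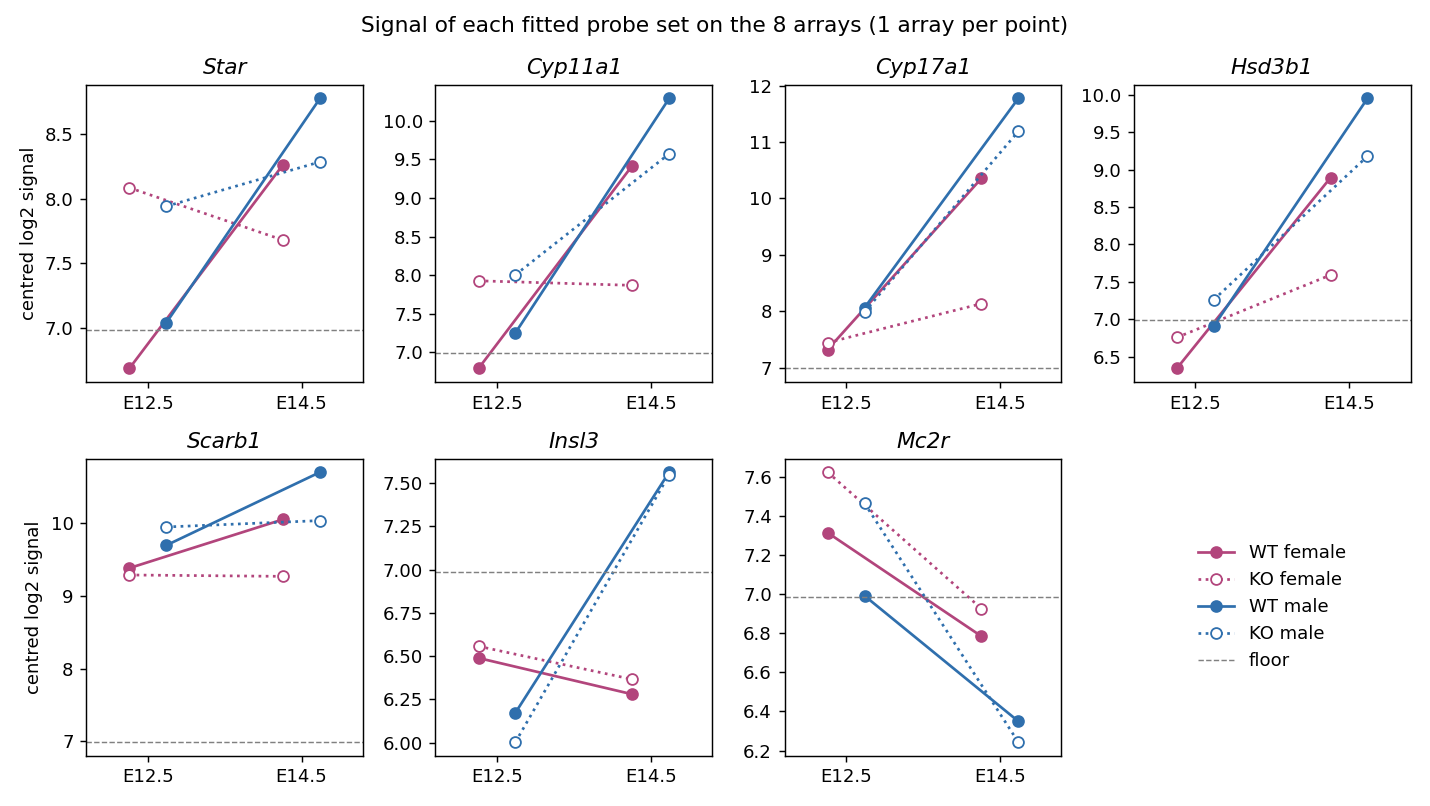
Centred log2 signal of the 7 fitted probe sets, 1 panel per gene, at E12.5 and E14.5. Each point is 1 array, colour gives the sex, filled points with solid lines are WT and open points with dotted lines are KO, and the dashed line is the floor of 6.99. Star and Cyp11a1 are higher in KO than in WT at E12.5 and lower at E14.5 in both sexes.

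At E14.5 the order was the other way round. The 5 genes from cholesterol uptake to androgen precursors, Scarb1, Star, Cyp11a1, Hsd3b1 and Cyp17a1, stood lower in KO than in WT in both the female and the male pair, with differences from -2.22 to -0.49. The gap was larger in the female pair for each of the 5. None passed the test over both sexes. Insl3 was level in the male pair, and Mc2r was under the floor.

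Cyp17a1, the enzyme on the way to androgens, had the largest difference. It was at 10.36 and 8.13 in the WT and KO female at E14.5, a difference of -2.22, and at 11.77 and 11.19 in the WT and KO male, a difference of -0.58. The KO female stood near the E12.5 male levels, and the KO male above the WT female. The mean difference of -1.40 ± 0.34 was the most negative of all 8452 probe sets, with a limma adjusted p of 0.610 (Benjamini-Hochberg). It rests on the female pair: without the WT female or the KO female E14.5 array, what remained was the male difference of -0.58.

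Cyp11a1 was at 9.42 in the WT female and 7.87 in the KO female, and at 10.29 and 9.57 in the WT and KO male, with differences of -1.55 and -0.72. Hsd3b1, which acts on its product, was at 8.89 and 7.59 in WT and KO females and at 9.95 and 9.18 in WT and KO males, with differences of -1.30 and -0.77. For both enzymes the KO female was the lowest of the 4 gonads, while the KO male lay above the WT female, so that the genotypes overlapped across the sexes. The mean differences were -1.13 ± 0.19 and -1.04 ± 0.14, the 4th and the 6th most negative of all, with limma adjusted p of 0.364 and 0.309 (Benjamini-Hochberg).

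The 2 genes that handle cholesterol differed less, and by nearly the same amount in each sex. Scarb1 was at 10.06 and 9.27 in WT and KO females and at 10.71 and 10.04 in WT and KO males, differences of -0.79 and -0.67. Star was at 8.26 and 7.68 in WT and KO females and at 8.78 and 8.28 in WT and KO males, differences of -0.58 and -0.49. Both KO levels of Scarb1 lay below both WT levels, by 0.02 at the closest, and for Star the KO male and the WT female were level within 0.02. The limma fit gave -0.73 ± 0.11 for Scarb1 (adjusted p = 0.309) and -0.54 ± 0.09 for Star (adjusted p = 0.364), after Benjamini-Hochberg adjustment.

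Insl3, the Leydig cell hormone, lay above the floor only on the E14.5 male arrays, where it was at 7.56 in WT and 7.55 in KO. The KO male thus had lower levels of the steroid enzymes than the WT male, and an Insl3 level within 0.01 of it. The E14.5 females were at 6.28 and 6.37, under the floor. This probe set has the suffix of those that Affymetrix could not build by its usual design rules, and the only other Insl3 probe set, shared with Jak3, was above the floor on 0 arrays. Mc2r was under the floor on all 4 arrays of E14.5, so its difference there could not be measured.

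With limma, 0 of the 7 genes passed at E14.5, where 0% of all probe sets passed and 353 of 8452 had an unadjusted p under 0.05. Fitted differences were negative for 6 of the 7 genes and 0 for Mc2r, with a median of -0.73, where 54.5% of all probe sets were negative. Among the 7, the value of Insl3 was -0.01 and turned to 0.04 with a lower floor or none. When the floor was left out, or only probe sets above it on at least 4 arrays were fitted, all 5 of Scarb1, Star, Cyp11a1, Hsd3b1 and Cyp17a1 passed the same limma test.

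**Figure D2:**
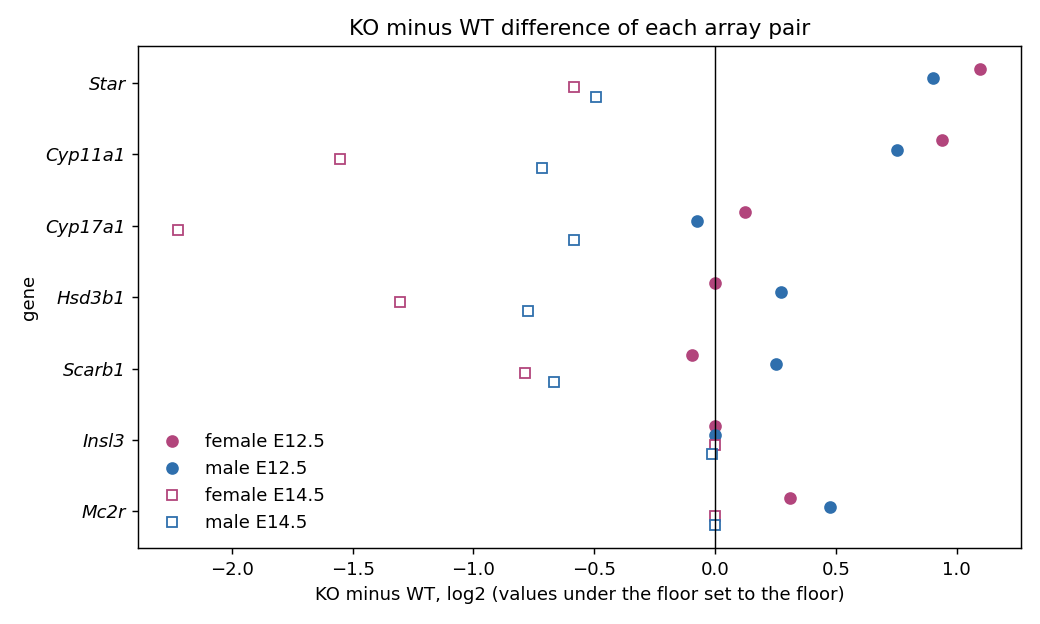
KO minus WT difference on the log2 scale for each gene (rows) in each of the 4 array pairs. Each point is the difference of 1 pair of arrays with values under the floor set to it, circles are E12.5, open squares are E14.5, and colour gives the sex. The E14.5 points of Scarb1, Star, Cyp11a1, Hsd3b1 and Cyp17a1 lie at or below -0.49, and Cyp17a1 in females is at -2.22.

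The question of interest is the contrast of the stages, that is, the KO difference at E14.5 minus that at E12.5. The fitted value was negative for all 7 genes, with a median of -1.18, where 54.9% of all probe sets were negative. This count includes Mc2r, under the floor at E14.5, and Insl3, under it at E12.5. Cyp11a1 had the most negative value of all 8452 probe sets, -1.98 ± 0.27 (95% confidence interval -2.63 to -1.33). Star had the next, -1.54 ± 0.13 (interval -1.84 to -1.23). For both genes the WT female of E12.5 was set to the floor, which shrinks the contrast. The SEs and intervals take that floored value as measured. Cyp17a1 was at -1.43 ± 0.48, Hsd3b1 at -1.18 ± 0.20, Scarb1 at -0.81 ± 0.15 and Mc2r at -0.39 ± 0.07. The floored E14.5 arrays of Mc2r add no spread to its SE. Insl3 was at -0.01 and turned to 0.09 with a lower floor or none.

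None of these contrasts passed: 0 of the 7 genes, against 0% of all probe sets, of which 303 had an unadjusted p under 0.05. The limma adjusted p (Benjamini-Hochberg) was 0.101 for Star, 0.263 for Cyp11a1, 0.357 for Hsd3b1, 0.402 for Mc2r, 0.427 for Scarb1 and 1.0 for Cyp17a1. Without the floor, and with the stricter filter on 4 arrays, the contrast passed for Scarb1, Star, Cyp11a1, Hsd3b1 and Cyp17a1. For Star and Cyp11a1 the sign changed between the stages in each sex, from positive in both pairs at E12.5 to negative in both at E14.5. Of 8441 probe sets with a value in all 4 pairs, 329 (3.90%) had these signs, Star and Cyp11a1 among them. For Hsd3b1, Cyp17a1 and Scarb1 the contrast came mainly from E14.5, and for Mc2r from E12.5, since its E14.5 arrays were under the floor. For Hsd3b1 the floor cut the E12.5 part. Without the floor its E12.5 differences were positive in both sexes, 0.41 in females and 0.35 in males. Both females and the WT male were under the floor, so whether its sign changed in both sexes could not be measured.

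**Figure D3:**
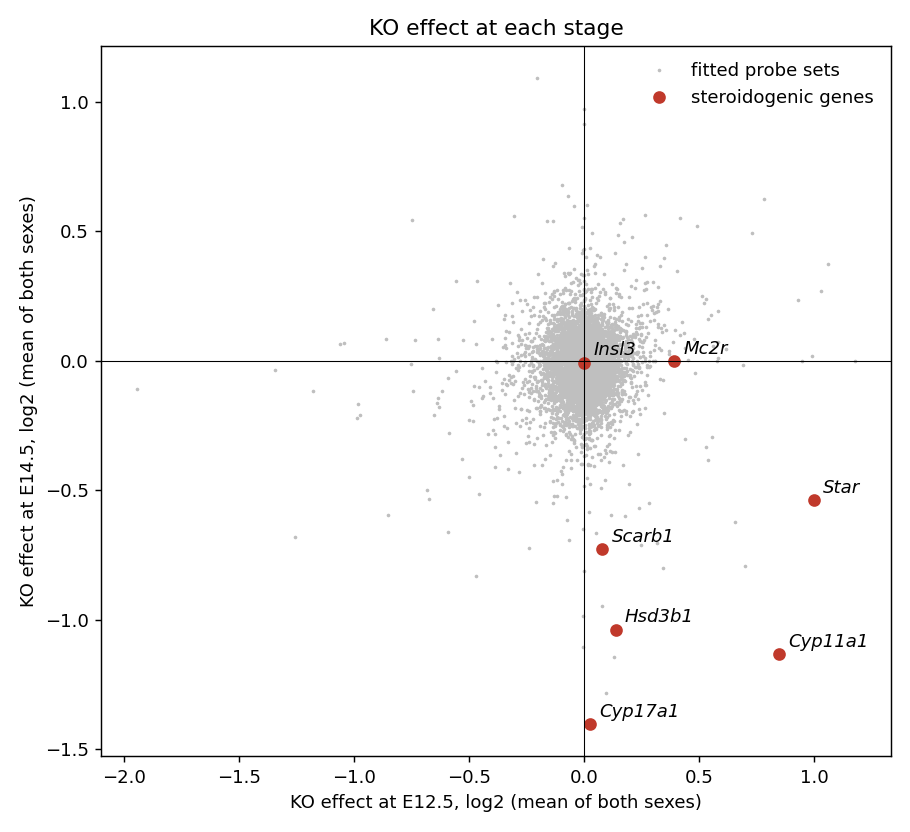
Fitted KO difference at E12.5 (horizontal, log2) against that at E14.5 (vertical, log2), each over both sexes, for 8452 probe sets (grey) and the 7 genes (red, named). Star and Cyp11a1 lie to the right and below the centre, while Cyp17a1, Hsd3b1 and Scarb1 lie near 0 on the horizontal axis and below 0 on the vertical one.

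The order of levels across the 8 gonads separated the genes by stage and sex. Star, Cyp11a1, Cyp17a1, Hsd3b1, Scarb1 and Insl3 were highest in the WT male at E14.5, and Mc2r in the KO female at E12.5. For Cyp17a1, the levels ran from 11.77 in the WT male through 11.19 in the KO male and 10.36 in the WT female to 8.13 in the KO female, all at E14.5. This KO female stood within 0.07 of the WT male of E12.5, a gap under the fit's SD of 0.48 for a difference of 2 arrays. For Cyp11a1, the KO male and KO female of E12.5 and the KO female of E14.5 were within the SD of 0.27, between 7.87 and 8.00. So were the KO male and the WT female of E14.5, at 9.57 and 9.42.

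Hsd3b1 had the same upper ranks as Cyp17a1, with 9.95, 9.18, 8.89 and 7.59 in the WT male, KO male, WT female and KO female of E14.5. Each step between these 4 exceeded the SD of 0.20. Scarb1 stayed above 9 everywhere, and its WT female at E14.5, KO male at E14.5 and KO male at E12.5 lay between 9.95 and 10.06, within its SD of 0.15. Signals of different probe sets are not set against each other, since their scales differ.

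At E12.5, Scarb1 was higher in males than in females over both genotypes, by 0.49 ± 0.11 (limma adjusted p = 0.0423), and Mc2r was lower, by -0.24 ± 0.05 (adjusted p = 0.0391). These were 2 of the 7 genes, against 9.81% of all probe sets, 5.32% as higher and 4.48% as lower. The Scarb1 call held under 5 of 17 alternatives and that of Mc2r under 1. The SE of Mc2r understates the spread, since its E14.5 arrays were all set to the floor. Cyp17a1 was 0.64 ± 0.34 higher in males without passing (limma adjusted p = 0.263). The male minus female difference of Star was -0.05 ± 0.09 and turned positive, to at most 0.19, with a lower floor, none, or no centring.

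At E14.5, 6 of the 7 genes were higher in males, but 74.7% of all probe sets passed in this comparison, 38.2% as higher and 36.5% as lower, and the male arrays of this stage stood apart from all others. The differences were 2.24 ± 0.34 for Cyp17a1, 1.32 ± 0.14 for Hsd3b1, 1.29 ± 0.19 for Cyp11a1, 0.71 ± 0.11 for Scarb1 and 0.56 ± 0.09 for Star, with limma adjusted p between 2.3e-04 and 0.00133 (Benjamini-Hochberg). Insl3, the sixth, was fitted only because its E14.5 male arrays exceeded the floor, and with both females under it the difference was at least 0.57, so its test is no support. Sex and array cannot be told apart here. Scarb1 and Star lost the call when any 1 array of E14.5 was left out, and Star also without centring.

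The unfitted probe sets, all near or under the floor, gave small values at E12.5. The further Hsd3b1 probe set had KO minus WT differences of -0.97 in females and -0.79 in males at E14.5, and that of Cyp17a1 had -0.50 and -0.43, without a floor. The further Star probe set had -0.14 and -0.04. Only 1 of these values was from an array above the floor (Hsd3b1 in the WT male, at 7.06), so they carry no weight beside the fitted probe sets. Hsd3b1 has close relatives in the mouse genome, and whether its probes also bind them was not tested.

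The other genes of the steroid pathway, a list of 38 with 22 fitted, had small medians, and 0 passed at either stage. The median was 0.02 at E12.5, with 12 positive and 9 negative, and -0.04 at E14.5, with 6 positive and 15 negative. The shares over all probe sets were 46.1% positive at E12.5 and 54.5% negative at E14.5. Fdx1, the ferredoxin that passes electrons to Cyp11a1, had pair differences of -0.60 in females and -0.54 in males at E14.5 (-0.57 ± 0.11, limma adjusted p = 0.396), and of 0.04 and 0.43 at E12.5. Gata6, a transcription factor of steroid-making cells, was positive in all 4 pairs, by 0.11 and 0.43 at E12.5 and by 0.27 and 0.29 at E14.5. Wt1, needed for the early gonad, was at -0.24 and -0.16 at E12.5. Nr5a1, the master regulator of steroid enzyme genes, was between 10.56 and 11.94 on all 8 arrays, with a difference of 0.06 at E12.5 and of -0.23 ± 0.09 at E14.5.

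Cholesterol synthesis genes, 13 of 19 fitted, had a median of 0.03 at E12.5 (11 positive and 2 negative) and of -0.16 at E14.5 (2 positive and 11 negative), and 0 passed. Of all probe sets, 46.1% were positive at E12.5 and 54.5% negative at E14.5. Hmgcs1, an early enzyme of the route, was at -0.48 and -0.29 in the E14.5 pairs, and Fdps, a later one, at -0.23 and -0.55. Genes of the signals to fetal Leydig cells, 12 of 15 fitted, had medians of 0.05 and -0.05, and 0 of the probe sets that stood for them passed. A second probe set of Vcam1, an adhesion molecule gene of this list, did pass at E12.5 (0.56 ± 0.05, limma adjusted p = 0.0433). Its differences were 0.59 in males and at least 0.53 in females. The probe set that stood for Vcam1 differed by only 0.06 ± 0.05, so the probe sets of this gene disagree. In the same list Dhh, the hedgehog ligand that Sertoli cells send to Leydig cells, is a gene of the Sertoli list too. It was at -0.85 in females and -0.48 in males at E14.5 (limma adjusted p = 0.396). Its receptor gene Ptch1 was at -0.28 and -0.42.

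The gonads were also examined for genes that mark the adrenal cortex, since Star, Cyp11a1 and Mc2r are active there too. Of 16 adrenocortical genes, 9 were fitted, with a median of 0.01 at E12.5 and 0 passing. Differences were positive for 5 and negative for 3, where 46.1% of all probe sets were positive. Cyp21a1, a steroid hydroxylase of the adrenal cortex, differed by 0.15 in females and 0.20 in males at E12.5 (0.17 ± 0.10), from WT levels of 9.11 and 8.75. Mrap, which brings Mc2r to the cell surface, was under the floor on all 4 arrays of E12.5. Cyp11b1, Cyp11b2 and Akr1b7, which define adrenocortical cells, are in the list but had no fitted probe set of their own. This limits what the list can show of the adrenal cortex. At E14.5 the list's pair medians were -0.14 and -0.06, with Hsd11b2 at -0.17 and -0.16.

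Genes of chromaffin and sympathoadrenal cells, the nerve-derived cells of the adrenal medulla and ganglia, were examined as well. The list's median was 0.18 at E12.5, with 7 of 9 fitted genes positive against 46.1% of all probe sets, and 0.02 at E14.5. Chgb, a protein of hormone granules, was under the floor in both WT gonads of E12.5 and at 7.92 in the KO female and 8.40 in the KO male, differences of at least 0.94 and 1.41. It was the only 1 of the 9 that passed (limma adjusted p = 0.0433), but the KO arrays of E12.5 were the only ones above the floor, so it entered the fit through the group where it is high and its test is no support. Npy, a neuropeptide gene, went the other way at E12.5, with -0.15 in females and -0.51 in males. Th, the first enzyme of catecholamine synthesis and like Npy named after its values were seen, was at 7.13 and 7.74 in WT and KO females and at 7.37 and 7.92 in WT and KO males. The mean level of the list was 7.45 and 7.44 in the WT female and male and 7.72 and 7.68 in the KO female and male. Like the count and the median of the list, these means include Chgb, so they share its limit. The part of these cells in the Star difference was not tested.

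Markers of Sertoli cells, the supporting cells of the testis, stood lower in KO at E14.5 together with the steroid enzyme genes. Of 13 fitted genes from a list of 20, 11 were negative in the female pair and 13 in the male pair of E14.5. Their medians were -0.40 and -0.47, and 0 passed. Of all probe sets, 53.1% were negative in the female pair and 43.3% in the male pair. Among the Sertoli genes, Aard was at -1.37 and -0.60. Gstm6 was at -0.57 in males, with the KO female under the floor at 6.91 against 8.07 in WT. The mean level of the list was 8.40 in the WT female against 7.89 in the KO female of E14.5, and 8.01 in both females of E12.5. In males it was 9.07 and 8.66 in WT and KO at E14.5. Pregranulosa genes, those of the supporting cells of the ovary, had means of 7.81 and 8.15 in the WT and KO male of E14.5, and of 9.04 and 8.51 in the WT and KO female, so the pairs went opposite ways. Their part in the lower steroid enzyme levels was not tested. Within the male pair alone, which leaves out the WT female E14.5 array, the 7 genes had a median difference of -0.58. Of them 6 were negative, against 43.3% of all probe sets. Within the female pair alone, which leaves out both E14.5 males, the median was -0.79 with 5 negative, against 53.1%. Leaving out both doubted arrays leaves no KO and WT pair of one sex at E14.5.

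The Sertoli pair medians at E12.5 were 0.01 and -0.11, and those of the pregranulosa list, which holds Wnt4 itself, were -0.63 and -0.33. Germ cell, endothelial, macrophage, mesonephros and duct, and erythroid lists had 0 genes passing at either stage. For endothelial genes the median was 0.15 at E12.5 and 0.06 at E14.5. At E12.5, 6 were positive and 2 negative, where 46.1% of all probe sets were positive.

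**Figure D4:**
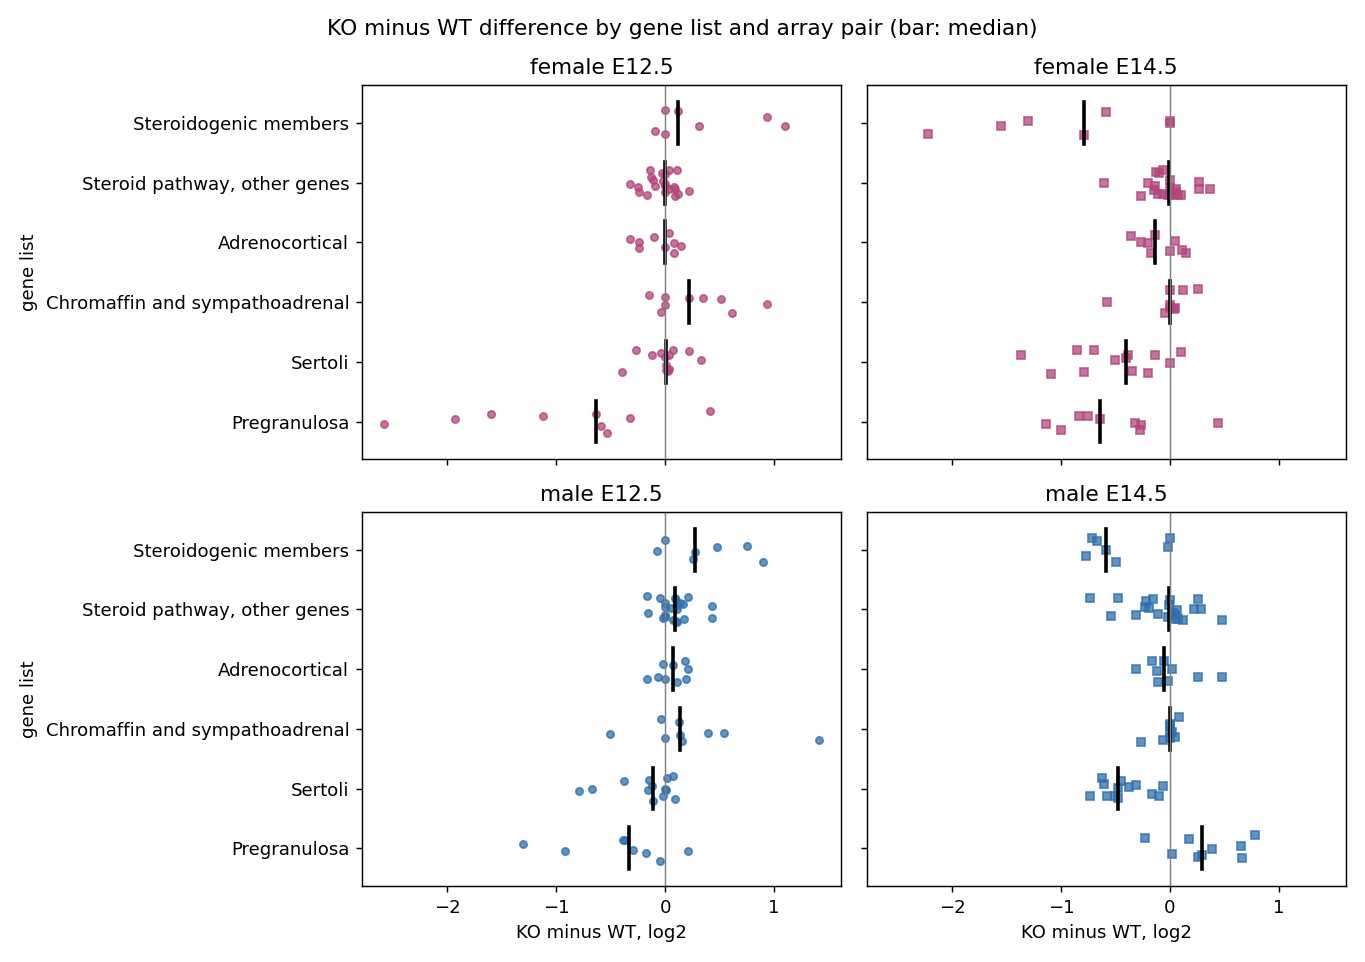
KO minus WT difference (log2, floored) of each fitted gene in 6 gene lists, with 1 panel per array pair, females above and males below, E12.5 on the left and E14.5 on the right. Points are genes and black bars are medians. The steroidogenic genes reach -2.22 in females at E14.5, where the Sertoli list also has a median of -0.40, and the chromaffin list holds values of both signs at E12.5.

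The genes varied together to different degrees. Over the 8 arrays, the Pearson correlation of each with the mean of the others, Insl3 left out, was 0.960 for Cyp11a1, 0.897 for Star, 0.875 for Hsd3b1, 0.851 for Cyp17a1 and 0.801 for Scarb1, but -0.476 for Mc2r. These values describe 8 arrays, which share sex, stage and the distance of the E14.5 males from the rest, and carry no test. Among 6336 other genes, the mean pattern of the 6 was most closely followed by Gtf2b (r = 0.984), Alas1 (0.965), Clu (0.952), Itpkb (0.935), Adh1 (0.927) and Apoc1 (0.915).

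Adh1, an alcohol dehydrogenase gene, also changed order between the stages. It was at 8.43 and 9.06 in WT and KO females and at 8.47 and 9.17 in WT and KO males at E12.5, and at 8.93 and 8.26 in females and at 10.34 and 9.77 in males at E14.5. Its KO levels thus lay above the WT levels at E12.5 and below them within each sex at E14.5. The contrast of the stages was -1.28 ± 0.12 (limma adjusted p = 0.137). Alas1, the first enzyme of haem synthesis, was at 10.11 and 10.30 in females and at 10.11 and 10.31 in males at E12.5, WT first, and at 10.52 and 9.99 and at 11.12 and 10.70 at E14.5.

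By the 4 pair differences alone, the genes nearest to the median of the 7 were Ptgr1 (distance 0.195), Eif2s3y (0.203), Hspa1b (0.241), Fdx1 (0.262), Alas1 (0.314) and Cst9 (0.317), where the distance is the root of the summed squared gaps in log2 units of floored values. Eif2s3y, the Y-linked gene above the female level on the WT female E14.5 array, and Cst9, a Sertoli cell gene, are among these 6. For Eif2s3y this depends on the floor: its E14.5 female difference was -0.65 with the floor and -2.77 without it.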

How the data were processed

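RNA of embryonic gonads was labelled and hybridised to 8 Affymetrix MG_U74Av2 arrays, 1 per combination of sex, genotype and stage. Per the submitters' processing notes, the deposited values were made with MAS5; the sources used here give neither its version nor its scaling. The log2 unit of the deposited values was read from their range, 2.36 to 15.0. In 1 deposited column (KO male E12.5), 14 cells were date serial numbers and were set to missing.

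Array medians (7.04 to 7.85) were centred on a common value, and values under the 40th percentile (6.99) were set to that floor. Those exceeding it on 2 or more arrays were fitted, without 66 control probe sets, in all 8452 for 6353 genes. Of all 12488 probe sets, the platform annotation gave 1 gene to 10833, several to 396 and none to 1193. A list gene with several fitted probe sets was represented by that of highest mean.

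Tests used limma 3.58.1 in R 4.3.3 with genotype within stage and sex within stage and an intensity trend. Two-sided p-values were adjusted by Benjamini-Hochberg over all 8452 probe sets and called at 0.05. The sexes act as the repeat, with 2 residual and 4.38 prior degrees of freedom, so a KO difference that differs between the sexes counts as error. SEs come from this fit. No group had a replicate, and 8 arrays limit the precision. The fit was tested on simulated data.

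The genes and lists were chosen with earlier results of these data known. Other genes are named if they pass in a list (up to 4), otherwise up to 2 per list by the smaller of their pair differences, plus the 6 most like the steroidogenic genes by each of 2 measures. Named genes of lists without a passing gene are given for the lists that bear on the steroidogenic genes. Alternatives changed the floor, filter, centring, trend, samples and stage.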

Additional observations from a re-analysis of the deposited data

Results flagged for a closer look

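Star and Cyp11a1 each moved one way in both sexes at E12.5 and the opposite way in both sexes at E14.5. For Star, the KO difference at E14.5 minus that at E12.5 was -1.54, and for Cyp11a1 it was -1.98. Both were fitted with the WT female of E12.5 set to the floor. The test of this difference did not pass for either gene, with limma adjusted p of 0.101 and 0.263 (Benjamini-Hochberg).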

How the results depend on the processing

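The number of passing probe sets depended strongly on the floor and filter. For the KO difference at E12.5 (7 passing), it was 3 with the floor at the 20th percentile, 67 without a floor, 62 with the filter on 4 arrays, 9 without centring, and 0 without a filter, with quantile normalization, without the intensity trend, with each stage fitted alone, or without both E14.5 male arrays. At E14.5 (0 passing) it was 3 with the lower floor, 72 without a floor and 47 with the stricter filter. For the contrast of the stages (0) it was 63 and 37 under the last 2. For male minus female at E12.5 (829) it was 1490 with the lower floor, 1671 without one, 14 without a filter, 1498 with the stricter filter, 2244 without centring, 503 without the trend, and 0 with each stage alone or without both E14.5 males.

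Leaving out 1 array at a time gave 0 to 0 at E12.5, 0 to 219 at E14.5 (206 without the WT female and 219 without the KO female), 0 to 0 for male minus female at E12.5, and 4036 to 5646 for male minus female at E14.5, against 6314 (4036 without the WT female and 4051 without the WT male of that stage). By construction, leaving out 1 array leaves 1 pair at that stage, so the lone pair is assumed to vary like the rest. Prior degrees of freedom were 4.38 in the reported fit, 19.1 without a floor and 16.3 with the stricter filter, and many probe sets at the floor on both sides have differences of 0.

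Signs turned for small values. The Insl3 difference at E14.5 became 0.036, and its contrast of the stages 0.087, with a lower floor or none. For Star, male minus female at E12.5 became 0.11 with a lower floor or none and 0.19 without centring, and ranged from -0.14 to 0.053 with 1 array left out. With 1 array left out, the E12.5 KO difference ranged from -0.10 to 0.25 for Scarb1 and from -0.074 to 0.12 for Cyp17a1. Of all alternative values for the 7 genes, 420 kept their side of the threshold without turning sign. The call was lost in 51 and gained in 27, and 13 turned sign. Values that fell to 0 were not counted as turned. The E14.5 difference ranged from -2.22 to -0.58 for Cyp17a1, from -1.55 to -0.72 for Cyp11a1 and from -1.30 to -0.77 for Hsd3b1. The causes were not tested. No paired analysis was possible because the labels carry no replicate numbers, apart from the reported fit itself, which compares KO with WT within each sex. Signals near background limit Hsd3b1 at E12.5, Insl3 in 6 gonads and Mc2r at E14.5.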
